A study of Homo sapiens with 12 samples.

Results

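Zinc finger genes named ZNF and a number were followed in KYSE150 cells, an established human line from a squamous carcinoma of the oesophagus, after depletion of ANLN. ANLN encodes anillin, an actin-binding scaffold of the contractile ring. The 270 genes were chosen by name and by level: the symbol had to be ZNF and a number, with no pseudogene or antisense suffix, and the mean of the 3 control libraries had to reach 5 CPM (the count over the library total, scaled to a common size) at both times. They are 270 of 431 genes with such a name in both count tables, and of 35484 gene IDs that both tables list. Cells labelled wild type received a control small interfering RNA (siNC), and cells labelled as ANLN knockdown received one against ANLN (siANLN). RNA was taken 24 h or 48 h after transfection, so all groups share the line and the transfection. Each of the 4 groups had 3 libraries labelled as biological replicates, 12 in all. The source describes 1 cell line, and the sequences and number of the siRNAs are not given in the sources used here. Every change below is siANLN over siNC, so effects of the loss of ANLN and of the sequence of either siRNA cannot be told apart.

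C2H2 zinc finger proteins form the most numerous family of human DNA-binding proteins. Each finger is a short fold held by a zinc ion between a pair of cysteines and a pair of histidines, and fingers in a row read neighbouring bases of DNA. Many carry a KRAB domain at the front of the protein, which binds TRIM28 (KAP1). TRIM28 in turn brings SETDB1, which methylates lysine 9 of histone H3, and KRAB zinc finger proteins are best known for silencing transposable elements this way. The genes lie largely in clusters of relatives that arose by tandem duplication, above all on chromosome 19. Other members carry a SCAN domain, through which such proteins pair, or neither domain.

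More ZNF genes rose than fell in siANLN cells at both times. At 24 h, 57 of the 270 rose and 7 fell, which is 21.1% and 2.59%. Over all 14698 genes tested at 24 h the shares were 5.93% higher and 4.86% lower, and 10.8% in either direction. At 48 h, 111 ZNF genes rose and 41 fell, which is 41.1% and 15.2%. Over all 16994 genes tested at 48 h the shares were 22.2% higher and 21.3% lower, and 43.6% in either direction. A gene was called changed at an adjusted p under 0.05 (edgeR quasi-likelihood test, Benjamini-Hochberg over all genes tested), and all 270 members were tested at both times. Members had to reach 5 CPM in siNC, while the other genes tested, non-coding ones included, had only to pass a filter on low counts. The power to call a change may thus differ between members and all genes, here and below. The counts depend on the test: DESeq2 called 48 rises and 4 falls at 24 h and 94 and 22 at 48 h, and limma on log2(FPKM + 0.1) called 31 and 2 and then 79 and 23.

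The typical change was small. The median log2 change (siANLN over siNC) of the 270 was 0.09 at 24 h and 0.14 at 48 h, against medians of -0.01 and -0.00 over all genes tested. The change was above 0 for 185 members at 24 h and 174 at 48 h. A called rise of at least 2-fold was seen for 4 members at 24 h and 9 at 48 h. Of the 57 that rose at 24 h, 54 also rose at 48 h. The other 3, ZNF117, ZNF256 and ZNF484, named because they are so few, had no call at 48 h. Of the 7 that fell at 24 h, 6 also fell at 48 h, and 114 members were called at neither time. Across the 270 genes the changes at both times had a Pearson correlation of 0.79 and a Spearman correlation of 0.74. This is a description across genes, which are not independent replicates, but the 24 h and 48 h values come from different libraries.

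**Figure D1:**
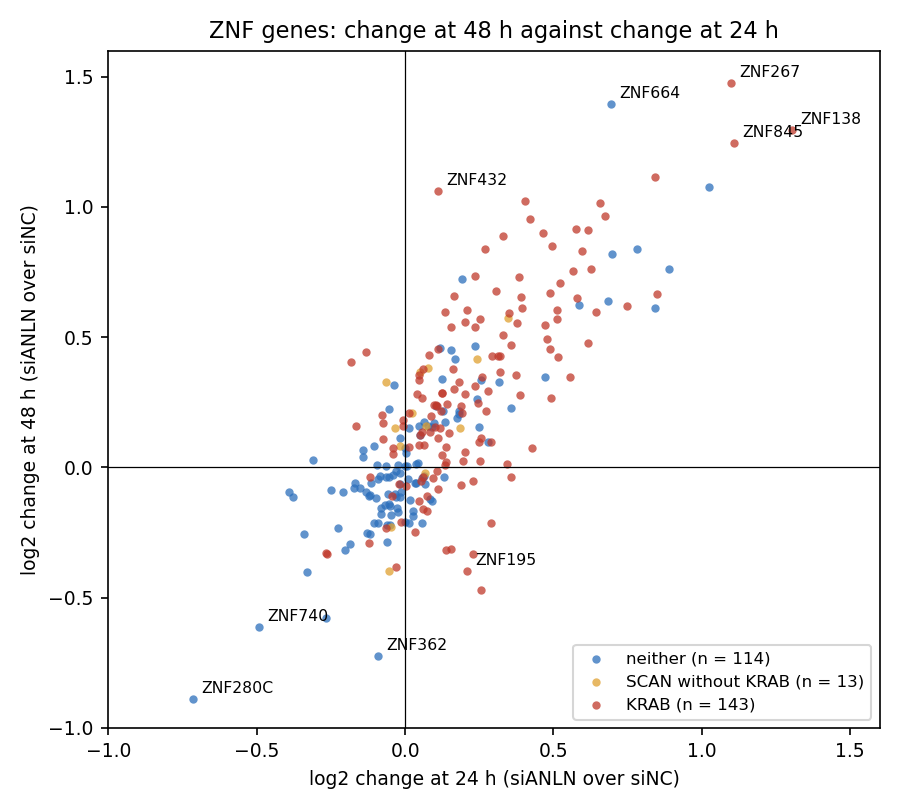
Log2 change (siANLN over siNC) of each of the 270 ZNF genes at 24 h on the horizontal axis and at 48 h on the vertical axis, coloured by domain class. Most points lie along the diagonal, the KRAB genes are mostly above 0 on both axes, and ZNF432, ZNF362 and ZNF195 lie off the diagonal.

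The summed level shows the same in every library. The 270 genes together held 7233, 7115 and 7113 CPM in the siNC libraries at 24 h and 7841, 7717 and 7712 CPM in the siANLN libraries (here and below, CPM is scaled with TMM factors). At 48 h they held 7409, 7504 and 7452 CPM in siNC and 8252, 8230 and 8114 CPM in siANLN. All 3 siANLN libraries were above all 3 siNC libraries at each time. The ratio of the group means was 1.08 at 24 h and 1.10 at 48 h.

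ANLN itself was at 911, 886 and 879 CPM in siNC and 110, 98.5 and 102 CPM in siANLN at 24 h, and fell by 3.11 on the log2 scale (SE 0.04, adjusted p = 1.3e-66). At 48 h it was at 731, 739 and 722 CPM in siNC and 83.7, 74.6 and 84.2 CPM in siANLN, which is 0.111-fold. The libraries held between 11805488 and 17921808 counts. Of 7 squamous markers, 6 reached a mean of 1 CPM, and SOX2 did not. The summed squamous level was 3181 to 3388 CPM in siNC and 2531 to 2616 CPM in siANLN at 24 h, and 4352 to 4504 CPM against 2008 to 2039 CPM at 48 h, so the sum moved with the groups. Not every marker did so at 24 h. KRT5 was 0.752-fold at 24 h and 0.412-fold at 48 h. TP63 was 0.981-fold at 24 h with no call (edgeR adjusted p = 0.760) and 0.744-fold at 48 h. Of 4 leukocyte markers none reached 1 CPM, and PTPRC was at 0 at 24 h. Of 3 endothelial markers 1 reached it at 48 h only, and of 4 fibroblast markers 1 did at each time, with COL1A2 and PDGFRA at 0. The summed fibroblast level was 18.7 to 19.8 CPM in siNC and 9.21 to 11.4 CPM in siANLN at 48 h. The part of these differences in the ZNF results was not tested. In bulk RNA, fewer cells of a type and less RNA per cell cannot be told apart.

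Rises and falls were counted by domain class. A KRAB signature was found in the longest annotated reading frame of 143 members, a SCAN signature without KRAB in 13, and neither in 114. The signatures are short sequence patterns, so a domain that departs from them is missed. Here and below, KRAB and SCAN genes are those with the signature, and the other classes may hold genes with either domain. Of the 143 KRAB genes, 42 rose and 0 fell at 24 h, and 78 rose and 12 fell at 48 h. Their median log2 change was 0.19 at 24 h and 0.27 at 48 h. Of the 114 genes with neither, 14 rose and 7 fell at 24 h, and 27 rose and 27 fell at 48 h, with medians of -0.02 and -0.04. For these 114 the shares at 24 h were 12.3% higher and 6.14% lower, against 5.93% and 4.86% over all genes tested. At 48 h they were 23.7% and 23.7%, near the 22.2% and 21.3% over all genes. Of the KRAB genes, 29.4% rose at 24 h, and 54.5% rose and 8.39% fell at 48 h. Of the 13 SCAN genes, 1 rose at 24 h, and 6 rose and 2 fell at 48 h. No test was made of the difference between classes. The 0 KRAB falls at 24 h by edgeR were also 0 by DESeq2 and by limma, and 1 KRAB gene was lower at an unadjusted p under 0.05.

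Summed over the 143 KRAB genes, the level was 2513, 2453 and 2440 CPM in siNC and 3003, 2880 and 2874 CPM in siANLN at 24 h. At 48 h it was 2541, 2540 and 2506 CPM in siNC and 3184, 3097 and 3084 CPM in siANLN. The ratio of means was 1.18 and then 1.23. Over the 127 other members it was 1.03 at both times, from 4685 ± 31.3 CPM to 4838 ± 1.08 CPM at 24 h and from 4926 ± 51.3 CPM to 5077 ± 51.9 CPM at 48 h (SD, n = 3). The KRAB genes had lower control levels, with a median of 13.3 CPM at 24 h against 25.8 CPM for the genes with neither domain. Across all 270 genes, control level (log2 CPM) and change had a Spearman correlation of -0.21 at 24 h and -0.29 at 48 h, which is a description: both values share the control libraries.

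The number of fingers also went with the change. Fingers were counted by pattern in the same reading frames, with 33 in ZNF462 at most and a median of 9. Of 45 genes with 0 to 4 fingers, 4 rose and 3 fell at 24 h. Of 91 with 5 to 9, 11 rose and 2 fell. Of 88 with 10 to 14, 23 rose and 1 fell, and of 46 with 15 or more, 19 rose and 1 fell. Shares that rose thus went from 8.89% to 41.3%, against 5.93% over all genes tested. At 48 h the genes that rose were 11, 29, 42 and 29 in the same order, and those that fell were 12, 15, 12 and 2. With 0 to 4 fingers that is 24.4% higher and 26.7% lower, near the 22.2% and 21.3% over all genes. With 15 or more it is 63.0% and 4.35%. The median change at 48 h was -0.06, 0.09, 0.21 and 0.42.

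Class and finger number overlap, since the median KRAB gene had 11 fingers and the median gene with neither domain 7.5. Within the KRAB genes, the median change at 24 h was 0.06 in 7 genes with 0 to 4 fingers, 0.11 in 41 with 5 to 9, 0.23 in 63 with 10 to 14 and 0.35 in 32 with 15 or more. Of those 32, 16 rose at 24 h and 24 at 48 h, and by edgeR 0 fell at either time, with 0 at an unadjusted p under 0.05 and 0 by DESeq2. In the members without KRAB the medians at 24 h were -0.05, -0.01, 0.04 and 0.11. At 48 h the medians were -0.06, 0.16, 0.25 and 0.52 with KRAB and -0.06, 0.01, 0.01 and 0.06 without. The Spearman correlation of finger number with the 24 h change was 0.46 over the 270 genes, 0.35 within the 143 KRAB genes and 0.30 within the other 127. With the 48 h change it was 0.39, 0.35 and 0.19. Coding length, in contrast, had a Spearman correlation of 0.13 with the 24 h change. These are descriptions across genes of shared descent.

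**Figure D2:**
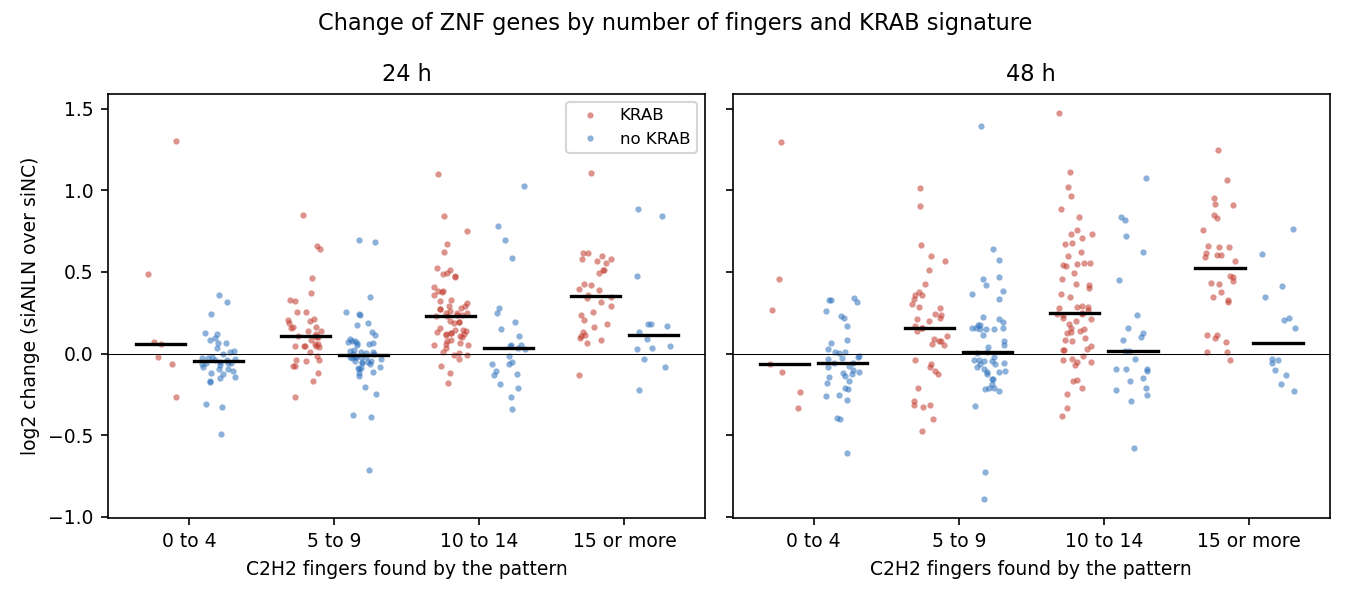
Log2 change (siANLN over siNC) of each ZNF gene at 24 h and 48 h, grouped by the number of C2H2 fingers and split by KRAB signature; each point is a gene and each black bar a group median. KRAB genes with 15 or more fingers have medians of 0.35 at 24 h and 0.52 at 48 h. The medians of members without KRAB stay between -0.06 and 0.11, with single genes further from 0 on both sides.

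The largest rise at 24 h was that of ZNF138, a KRAB gene on chromosome 7. It was at 9.58, 9.16 and 9.38 CPM in siNC and 24.9, 21.0 and 23.7 CPM in siANLN at 24 h. By 48 h the values were 7.94, 8.17 and 8.41 CPM in siNC and 20.6, 18.7 and 20.9 CPM in siANLN. The groups did not overlap, and the rise was 2.47-fold at 24 h (log2 1.30, SE 0.10, adjusted p = 3.78e-17) and 2.45-fold at 48 h.

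ZNF845, a KRAB gene with 26 fingers on chromosome 19, was at 10.3, 11.7 and 7.31 CPM in siNC and 21.1, 19.3 and 23.3 CPM in siANLN at 24 h. By 48 h it stood at 9.26, 10.2 and 10.6 CPM in siNC and 23.0, 24.1 and 24.2 CPM in siANLN. Every siANLN library was above every siNC library, by 2.16-fold at 24 h (adjusted p = 1.22e-11) and 2.37-fold at 48 h (adjusted p = 5.39e-31).

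ZNF267, a KRAB gene with 14 fingers, was at 14.1, 14.1 and 11.0 CPM in siNC and 31.0, 27.5 and 25.8 CPM in siANLN at 24 h. The 48 h levels were 8.44, 8.50 and 9.84 CPM in siNC and 24.6, 22.8 and 27.0 CPM in siANLN. It had the largest rise of all members at 48 h, 2.78-fold (log2 1.48, SE 0.10, adjusted p = 3.18e-39), after 2.14-fold at 24 h.

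ZNF714, on chromosome 19 and with 12 fingers, was at 25.1, 26.5 and 24.1 CPM in siNC and 53.0, 50.4 and 51.0 CPM in siANLN at 24 h, a 2.03-fold rise. At 48 h the rise was 2.11-fold (SE 0.07 on the log2 scale, adjusted p = 7.12e-43). ZNF680, in the same run of neighbours on chromosome 7 as ZNF138, rose 1.79-fold and then 2.16-fold. ZNF629 rose 1.85-fold and then 1.7-fold, from 25.4 to 26.0 CPM in siNC to 46.2 to 50.3 CPM in siANLN at 24 h. ZNF695 and ZNF721 rose 1.80-fold each at 24 h and 1.59-fold and 1.53-fold at 48 h. The counts of the last pair are less certain: 19.5% of the exon bases of ZNF695 lie also in the readthrough gene ZNF670-ZNF695, and 25.8% of those of ZNF721 in ABCA11P. All 8 were chosen for a call and no overlap between the groups at 24 h, and all were also called with no overlap at 48 h. Groups did not overlap at 48 h in 165 of the 270 members.

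**Figure D3:**
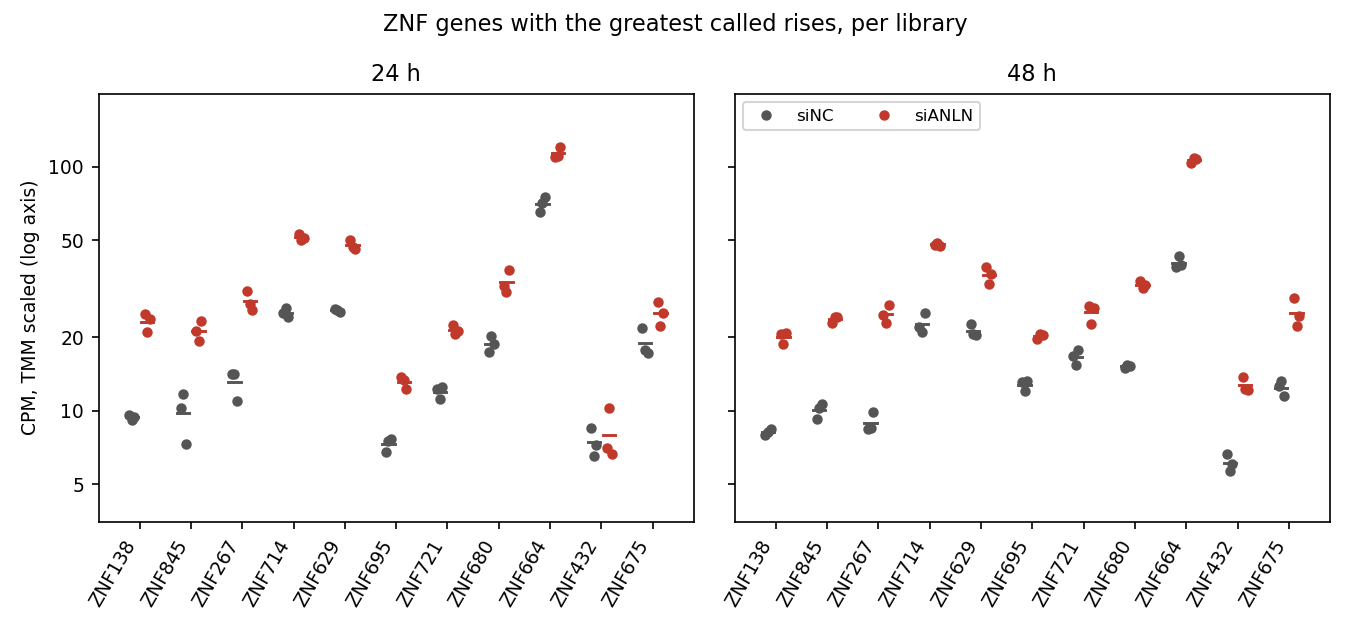
Level of the 11 ZNF genes that make up the 8 largest called rises at each time, in CPM scaled with TMM factors on a log axis; points are libraries, bars are means of 3, grey is siNC and red siANLN. The groups are apart in every gene at 48 h, and at 24 h in all but ZNF432. For the time at which a gene was chosen, the choice fixed this.

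Sequence words that went with the change across all genes of this series are shown here for some genes that hold them. These are not all of the genes that moved most, and ZNF267 was taken for its number of 8-base rising sites. The words were picked in an earlier look at these data according to how the genes that hold them changed, so the shares below partly restate that choice and support nothing. The words of genes that rose are TCGGAGA and CGGAGAA, which together make TCGGAGAA, and those of genes that fell are TTCCCAA and TCCCAAA, which make TTCCCAAA. They were searched on the transcript strand of the representative transcript (GENCODE 29, GRCh38), and an 8-base match was counted once. Such words can be matches to the seed of a transfected siRNA, and whether they match either siRNA used was not tested, since those sequences are not given. The 3 rising sites of ZNF267, on the plus strand of chromosome 16, lie in its finger repeats, and are shown as the coding stretch from base 2067 to base 2350 of the transcript, with TCGGAGAA in capitals:
ZNF267: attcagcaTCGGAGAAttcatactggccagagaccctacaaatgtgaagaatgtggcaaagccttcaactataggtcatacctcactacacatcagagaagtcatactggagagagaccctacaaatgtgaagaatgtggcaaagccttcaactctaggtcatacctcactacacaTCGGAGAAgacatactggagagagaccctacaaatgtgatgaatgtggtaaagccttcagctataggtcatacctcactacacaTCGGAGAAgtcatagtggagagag

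The sites begin at bases 2075, 2243 and 2327, that is 168 and 84 bases apart, and each begins inside a finger. The stretch shows the repeat of the fingers, in which the same few words come back with small changes. ZNF616, on chromosome 19, was not a member because its control level was too low (3.86, 4.13 and 3.43 CPM in siNC at 24 h), but it rose most of the ZNF genes named here, 3.04-fold at 24 h (adjusted p = 4.09e-14) and 4.25-fold at 48 h. Its coding sequence holds 3 such 8-base sites 84 bases apart, shown with 8 bases on each side:
ZNF616 at base 1795: gcagtgcaTCGGAGAAttcatact
ZNF616 at base 1879: gcaaggcaTCGGAGAAttcatact
ZNF616 at base 1963: acagtgcaTCGGAGAAttcatagt

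The rising pair was held by 69 of the 270 members (25.6%) and by 21.7% of all protein-coding genes tested at 24 h. The 8-base word was held by 21 members (7.78%) and by 3.68% of those genes. Of the 21, 11 rose and 1 fell at 24 h, and 15 rose and 1 fell at 48 h. Of all protein-coding genes tested that hold it, 23.1% rose and 4.31% fell at 24 h, and 43.6% and 18.5% at 48 h. Across members, 68 of 91 sites of the pair lay in coding sequence and 9 in 3′ UTRs. Of the 201 members without the rising pair, 36 rose and 4 fell at 24 h (17.9% and 1.99%), and 79 rose and 29 fell at 48 h (39.3% and 14.4%). Of all protein-coding genes tested without the pair, 5.15% rose and 5.99% fell at 24 h, and 24.2% and 25.2% at 48 h. Over all genes tested, whatever their words, the shares were 5.93% and 4.86% at 24 h and 22.2% and 21.3% at 48 h. None of the 4 words was held by 106 members, of which 18 rose and 1 fell at 24 h and 42 rose and 11 fell at 48 h. Among the 106, 58 KRAB genes had 13 rises (22.4%) and 0 falls at 24 h (0 lower also at an unadjusted p under 0.05 and by DESeq2). The 48 members without KRAB had 5 rises and 1 fall at 24 h (10.4% and 2.08%). ZNF138, ZNF680, ZNF721, ZNF664 and ZNF675 hold none of the 4. Some named members went against their words: ZNF845, ZNF714 and ZNF432, among the largest rises, hold falling words and no rising word. Of the named members that fell at either time, ZNF503 holds the 8-base rising word and ZNF346 a shorter rising word, both with no falling word. ZNF319, ZNF384, ZNF362, ZNF70, ZNF451 and ZNF148 hold words of both kinds.

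All 7 members that fell at 24 h lacked KRAB and SCAN signatures. ZNF280C, on the X chromosome, was at 18.0, 18.3 and 19.1 CPM in siNC and 11.8, 10.7 and 11.3 CPM in siANLN at 24 h. At 48 h the levels were 18.9, 19.9 and 19.6 CPM in siNC and 9.94, 11.8 and 9.82 CPM in siANLN. It had the largest fall at both times, 0.609-fold (log2 -0.72, SE 0.10, adjusted p = 1.22e-07) and 0.540-fold (adjusted p = 1.95e-16), with no overlap.

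ZNF740, on chromosome 12, was at 45.3, 43.1 and 42.8 CPM in siNC and 31.3, 31.6 and 30.4 CPM in siANLN at 24 h. The levels at 48 h were 45.6, 47.3 and 48.0 CPM in siNC and 29.3, 30.9 and 32.0 CPM in siANLN. The groups did not overlap, and the level was 0.711-fold at 24 h and 0.654-fold at 48 h (adjusted p = 3.46e-08 and 7.53e-19). Of its exon bases 22.0% lie also in CSAD or ITGB7. These 2 genes, which led the falls, hold the falling words, in 3′ UTRs except for 1 coding site, and sites of both are shown with the words in capitals:
ZNF280C at base 3279: aattacagTTCCCAAAgacacagt
ZNF280C at base 3584: aattacagTTCCCAAAgtcagtta
ZNF740 at base 735 (coding): agtaaagaTTCCCAAAaattttgt
ZNF740 at base 2134: tcctttggTCCCAAAaaacaaga
ZNF740 at base 2307: ttgtccacTCCCAAAaaagtaat
ZNF740 at base 3274: aactatccTCCCAAAaatgcttt
ZNF740 at base 7859: tccaggtgTTCCCAAttctgcca

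The falling words are common: 123 members (45.6%) hold 1 or both, as do 41.7% of protein-coding genes tested at 24 h. Of the 123, 26 rose and 5 fell at 24 h (21.1% and 4.07%), and 48 rose and 26 fell at 48 h (39.0% and 21.1%). Of all protein-coding genes tested that hold them, 6.88% rose and 8.97% fell at 24 h, and 22.3% and 31.4% at 48 h. The other 5 falls at 24 h were smaller. ZNF319 was 0.789-fold, ZNF580 0.795-fold, ZNF503 0.806-fold, ZNF646 0.855-fold and ZNF384 0.869-fold, with adjusted p-values from 0.0053 to 0.0239. Their groups did not overlap, but each call was lost without some single library. Without siANLN replicate 1 the adjusted p was 0.0791 for ZNF319, 0.114 for ZNF580 and 0.146 for ZNF384. Without siANLN replicate 3 it was 0.142 for ZNF503, 0.202 for ZNF646 and 0.0882 for ZNF384. Single siNC libraries also decided: without replicate 3 it was 0.073 for ZNF319, 0.0752 for ZNF646 and 0.059 for ZNF384, without replicate 2 it was 0.124 for ZNF384 and 0.091 for ZNF503, and without replicate 1 it was 0.0562 for ZNF503. At 48 h, ZNF319 (0.837-fold) lost its call without siANLN replicate 3 (adjusted p = 0.0601). The 48 h calls of ZNF319 and ZNF646 were also lost with limma on log2(FPKM + 0.1) (adjusted p = 0.0551 and 0.0568). With limma on log2(FPKM + 0.1) all 5 calls at 24 h were lost (adjusted p from 0.0548 to 0.202), and with DESeq2 those of ZNF503 (0.0738), ZNF646 (0.06) and ZNF384 (0.0667). ZNF384, a transcription factor known from gene fusions in leukaemia, was at 94.7, 101 and 102 CPM in siNC and 79.7, 82.6 and 76.7 CPM in siANLN at 48 h, with 31.9% of its exon bases shared with AC125494.1. ZNF503, known in mice from the developing striatum, had no call at 48 h (1.02-fold), and 2 gene IDs carry its name at 24 h.

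**Figure D4:**
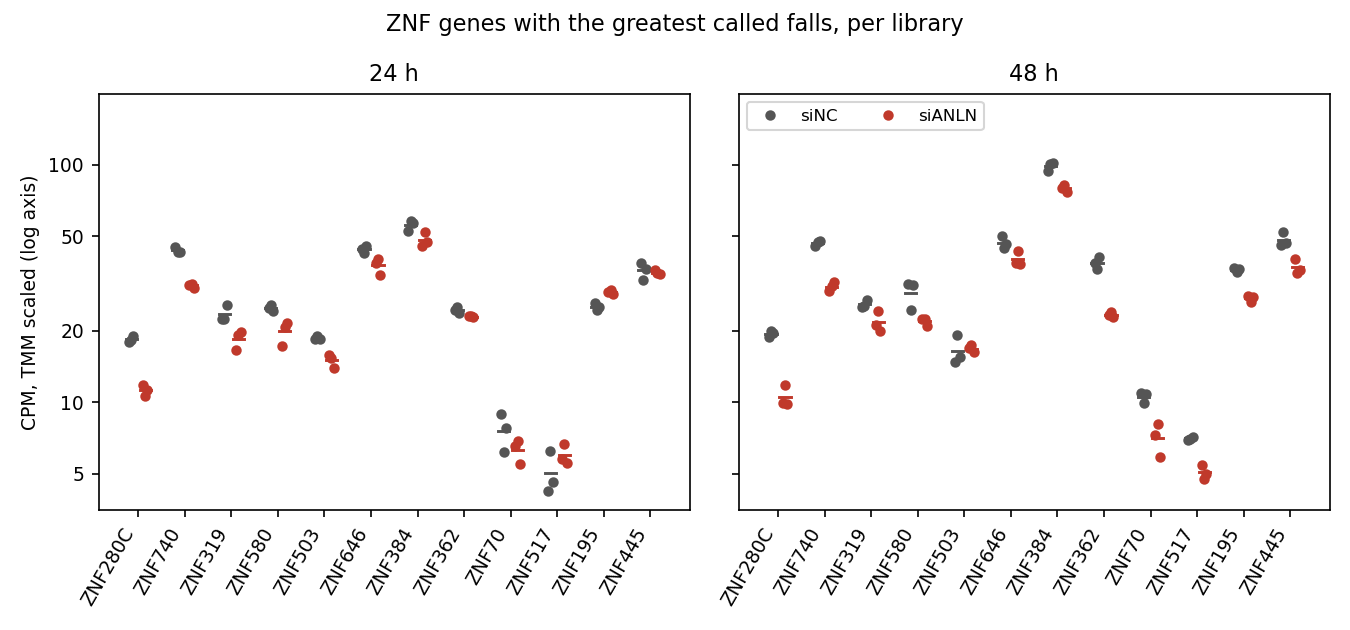
Level of the 12 ZNF genes that make up the called falls at 24 h and the 8 largest at 48 h, in CPM scaled with TMM factors on a log axis; points are libraries, bars are means of 3, grey is siNC and red siANLN. ZNF280C and ZNF740 are lower in siANLN at both times, and ZNF362, ZNF195 and ZNF445 are lower at 48 h.

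The largest falls at 48 h, after ZNF280C, were those of ZNF362 (0.606-fold), ZNF740, ZNF70 (0.670-fold) and ZNF517 (0.721-fold), followed by ZNF580 (0.757-fold), ZNF195 (0.758-fold) and ZNF445 (0.767-fold). Of the 8, 3 (ZNF517, ZNF195 and ZNF445) are KRAB genes. With DESeq2 the call of ZNF517 was lost (adjusted p = 0.0518). ZNF445 takes part in keeping genomic imprints with the relative ZFP57. It was at 45.9, 52.4 and 46.9 CPM in siNC and 40.2, 34.9 and 36.2 CPM in siANLN at 48 h, with an adjusted p of 5.24e-09. At 24 h its groups overlapped (0.979-fold).

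Some changes differed between the times. The change at 48 h minus that at 24 h was tested over all 12 libraries. The change (siANLN over siNC) was higher at 48 h for 22 ZNF genes and lower for 7, which is 8.15% and 2.59% of the 270. Over the 17625 gene IDs tested the shares were 8.29% and 4.71%, and 13.0% in either direction. A higher change at 48 h was thus about as frequent among the ZNF genes as among all genes. Time and the making of the tables cannot be told apart, since each time has its own table.

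ZNF664 had the smallest p. It was at 65.5, 70.8 and 74.95 CPM in siNC and 110, 111 and 121 CPM in siANLN at 24 h. At 48 h its levels were 39.0, 42.9 and 39.7 CPM in siNC and 104, 109 and 107 CPM in siANLN. The rise was 1.62-fold and then 2.63-fold, and the log2 changes differed by 0.71 (SE 0.07, adjusted p = 4.23e-13). The siANLN libraries spanned 110 to 121 CPM and then 104 to 109 CPM, and the siNC libraries 65.5 to 74.95 CPM and then 39.0 to 42.9 CPM, side by side from tables scaled separately.

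ZNF697 rose 1.14-fold and then 1.65-fold (difference 0.55, adjusted p = 1.97e-07). Its call at 24 h was lost in 4 of the 6 fits that left out a library (adjusted p from 0.0534 to 0.288; siANLN replicates 1 and 3, siNC replicates 1 and 3), with DESeq2 (0.0986), with no filter on low counts (0.0505) and with limma (0.278 on log2(FPKM + 0.1)). ZNF317 was 1.10-fold at 24 h with no call and rose 1.51-fold at 48 h (difference 0.48). ZNF121 was 1.08-fold with no call and rose 1.37-fold (difference 0.36). The changes of ZNF195 and ZNF362 were lower at 48 h than at 24 h. ZNF195 was at 26.2, 24.4 and 25.3 CPM in siNC and 29.3, 29.7 and 28.7 CPM in siANLN at 24 h, a difference that missed the threshold (adjusted p = 0.0738), and at 36.6, 35.5 and 36.5 CPM against 28.1, 26.4 and 27.8 CPM at 48 h. Its difference was -0.59 (SE 0.10, adjusted p = 5.63e-06). ZNF362 was 0.939-fold at 24 h and 0.606-fold at 48 h, a difference of -0.62 (adjusted p = 6.96e-06). Of the largest rises at 48 h, ZNF432 overlapped between groups at 24 h (1.08-fold) and rose 2.09-fold at 48 h (difference 0.96, SE 0.20, adjusted p = 0.000187), and ZNF675 rose 1.32-fold and then 2.03-fold (difference 0.63); its call at 24 h was lost with limma on log2(FPKM + 0.1) (adjusted p = 0.171).

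Many members lie in clusters. Neighbours with gaps of at most 250000 bases were joined, and 14 runs held 4 or more members. No test was made between runs, most of which are small, and their counts are descriptions to be read against 5.93% higher and 4.86% lower over all genes at 24 h and 22.2% and 21.3% at 48 h. In the run on chromosome 7 from 64519884 to 65006684 (GRCh38), ZNF680, ZNF107, ZNF138, ZNF273 and ZNF117 all rose at 24 h, by 0.28 to 1.30 on the log2 scale, and 4 of the 5 rose at 48 h. In the run on chromosome 12 from 132918308 to 133214831, 7 KRAB genes from ZNF605 to ZNF268 had 4 rises at 24 h and 6 at 48 h, with a median of 0.51 at 48 h. The 4 KRAB genes on chromosome 10 from 37776526 to 38150293 (ZNF248, ZNF25, ZNF33A and ZNF37A) all rose at 48 h, by 0.54 to 0.90. So did ZNF432, ZNF841, ZNF766 and ZNF480 on chromosome 19, by 0.55 to 1.06. With limma on log2(FPKM + 0.1) the call of ZNF841 was lost (adjusted p = 0.0579). Exons of ZNF432 and ZNF841 overlap, over 4.64% of the exon bases of ZNF841, so their counts are less certain.

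On chromosome 7 from 149069643 to 149497817, 7 genes from ZNF786 to ZNF746, 6 of them with a KRAB signature, had 0 calls at 24 h by edgeR, DESeq2 or limma and 0 at an unadjusted p under 0.05 (changes from -0.15 to 0.07) and 0 rises and 2 falls at 48 h, those of ZNF398 and ZNF783. At an unadjusted p under 0.05, 1 was higher at 48 h. On chromosome 19 from 55476332 to 55645622, 7 genes without KRAB from ZNF628 to ZNF581 had 1 fall at 24 h and 1 rise and 2 falls at 48 h. The longest run, 30 genes from ZNF264 to ZNF446 at the end of chromosome 19 with 27 KRAB genes, had 8 rises and 0 falls at 24 h (0 lower also at an unadjusted p under 0.05 and by DESeq2) and 13 and 3 at 48 h. Chromosome 19 as a whole held 98 members, with 23 rises and 1 fall at 24 h, 23.5% and 1.02%. The 172 on other chromosomes had 34 rises and 6 falls, 19.8% and 3.49%. At 48 h chromosome 19 had 52 rises and 7 falls (53.1% and 7.14%). The other chromosomes had 59 and 34 at 48 h (34.3% and 19.8%).

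**Figure D5:**
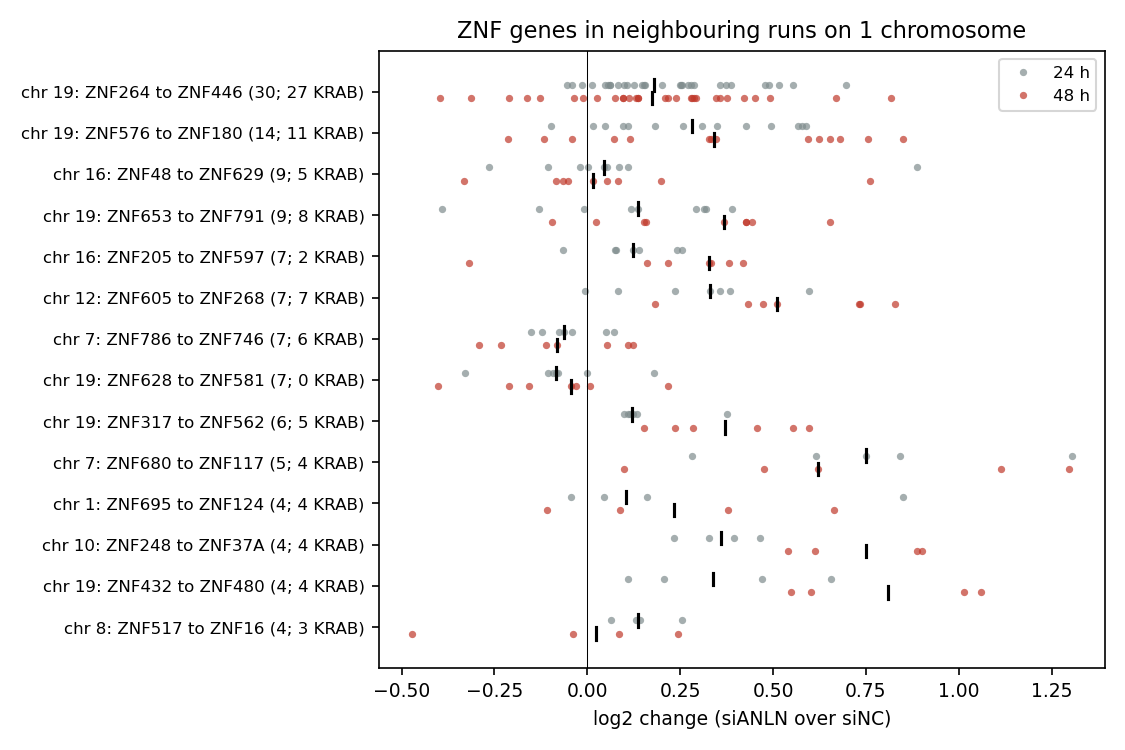
Log2 change (siANLN over siNC) of the members of the 14 runs of neighbouring ZNF genes, grey at 24 h and red at 48 h; each point is a gene, each black bar a median, and labels give the first and last gene, the number of genes and how many have a KRAB signature. The run from ZNF680 to ZNF117 lies wholly above 0, and the run from ZNF786 to ZNF746 straddles 0.

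Of 28 members listed for a known role, 24 had no call at 24 h and 15 at 48 h. By edgeR 4 rose and 0 fell at 24 h (0 lower also at an unadjusted p under 0.05 and by DESeq2), and 7 rose and 6 fell at 48 h. Over all genes tested 10.8% were called at 24 h and 43.6% at 48 h, so the listed members were called about as often as all genes at 48 h. The rises at both times were those of ZNF138, ZNF267, ZNF263 (1.18-fold and 1.34-fold) and ZNF202 (1.18-fold and 1.38-fold). At 24 h the call of ZNF263 was lost without siNC replicate 3 (adjusted p = 0.053), and that of ZNF202 without siANLN replicate 2 or 3 or siNC replicate 1 or 3 (0.0642 to 0.136). Both calls were lost with limma on log2(FPKM + 0.1) (0.0897 and 0.115), and that of ZNF202 with DESeq2 (0.0627). ZNF622, a factor in the making of the large ribosomal subunit, was at 50.8, 49.1 and 50.1 CPM in siNC and 64.0, 63.6 and 62.1 CPM in siANLN at 48 h, a 1.26-fold rise, after 1.09-fold with no call at 24 h. ZNF146 rose 1.18-fold and ZNF281 1.20-fold at 48 h. The falls at 48 h were small except for ZNF445: ZNF638 (0.883-fold), a nuclear protein that silences unintegrated viral DNA with the HUSH complex, ZNF451 (0.889-fold), a SUMO ligase, ZNF346 (0.889-fold), which binds double-stranded RNA, ZNF131 (0.899-fold) and ZNF148 (0.905-fold). The calls of the last 3 were lost with DESeq2 (adjusted p = 0.0779, 0.157 and 0.112) and with limma on log2(FPKM + 0.1) (0.0691, 0.057 and 0.0747). They were also lost without single libraries: ZNF346 without siANLN replicate 3 or siNC replicate 2, ZNF131 without any siNC library or siANLN replicate 1 or 3, and ZNF148 without siANLN replicate 2 or siNC replicate 3 (adjusted p from 0.0504 to 0.2).

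Among the listed members with no call at either time were proteins of the spindle and of chromatin. ZNF207 (BuGZ), a spindle and kinetochore protein, was at 204, 220 and 216 CPM in siNC and 214, 210 and 203 CPM in siANLN at 48 h (0.980-fold, adjusted p = 0.493). ZNF274, a KRAB protein that sits on ZNF genes themselves and brings SETDB1, was 1.04-fold at 24 h and 1.10-fold at 48 h (adjusted p = 0.0504). ZNF143, a promoter-bound activator, was 1.03-fold at 48 h, and ZNF217, amplified in breast cancers, 0.984-fold. A missed threshold does not show that these levels are the same.

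By length-scaled level (the authors' FPKM), the members with the most RNA in siNC at 48 h were ZNF395 (43.1 ± 0.57 FPKM), ZNF385A (32.4 ± 3.13 FPKM), ZNF622 (29.6 ± 0.52 FPKM), ZNF146 (21.5 ± 0.84 FPKM), ZNF768 (20.7 ± 0.09 FPKM) and ZNF770 (19.5 ± 0.49 FPKM; SD, n = 3). ZNF146 and ZNF768 lie within their spread of each other. The median member was at 3.56 FPKM and the lowest at 0.44. Of these 6, ZNF622 and ZNF146 rose and ZNF385A fell (0.837-fold) at 48 h, and 0 were called at 24 h by edgeR or DESeq2 (3 at an unadjusted p under 0.05, 2 of them higher). Over all genes tested 10.8% were called at 24 h and 43.6% at 48 h, and 6 genes are too few to be set apart from these shares. ZNF395 shares 41.4% of its 75-base windows with other transcripts, those of FBXO16 above all, and is uncertain.

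Genes listed as cofactors of KRAB silencing had calls in both directions. Of 26 listed genes, 26 were tested at 24 h and 25 at 48 h. At 24 h 3 rose and 3 fell, and at 48 h 8 rose and 6 fell, with medians of 0.01 and -0.01. Over all genes tested 5.93% rose and 4.86% fell at 24 h and 22.2% and 21.3% at 48 h, so calls of cofactors at 48 h lie near the background in each direction. TRIM28 was at 706, 730 and 727 CPM in siNC and 709, 762 and 719 CPM in siANLN at 24 h, with overlapping groups (1.01-fold). At 48 h it was at 641, 634 and 634 CPM in siNC and 667, 679 and 675 CPM in siANLN, a 1.06-fold rise (adjusted p = 0.00116). SETDB1 was called at neither time (1.00-fold and 0.964-fold).

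Of the cofactors with the smallest adjusted p, CBX1, a heterochromatin protein that binds methylated histone H3, fell at both times (0.831-fold and 0.865-fold). FAM208A (TASOR), the scaffold of the HUSH complex, rose at both (1.17-fold and 1.21-fold), and so did the histone methyltransferase SUV39H2 (1.25-fold and 1.30-fold). At 48 h ATF7IP, the partner of SETDB1, was at 194, 193 and 191 CPM in siNC and 158, 150 and 151 CPM in siANLN, a fall to 0.794-fold with no overlap (adjusted p = 1.57e-19). It was 1.02-fold at 24 h, and the times differed by -0.34 (adjusted p = 5.49e-07). CBX5 fell to 0.818-fold and the deacetylase HDAC1 rose 1.20-fold at 48 h. DAXX was at 88.0 to 91.3 CPM in siNC at 24 h and 0.744 to 1.55 CPM at 48 h, levels from tables made separately.

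At the threshold of 5 CPM, the members just inside were ZNF517 (5.01 CPM at 24 h), ZNF799 (5.02 CPM) and ZNF841 (5.05 CPM), and just outside were ZNF599 (4.93 CPM at 48 h), ZNF30 (4.96 CPM) and ZNF598. ZNF598 was at 138 CPM in siNC at 24 h and 4.998 CPM at 48 h. Members were chosen on control levels, so a gene that is low in siNC and high in siANLN, such as ZNF616, is left out while a gene that falls is kept. With the mean of all 6 libraries at each time as the rule, 279 genes qualified, of which 63 rose and 7 fell at 24 h and 118 rose and 41 fell at 48 h. Outside the members, 84 ZNF genes tested at 24 h held 15 rises and 0 falls by edgeR (0 also by DESeq2, and 2 lower at an unadjusted p under 0.05), and 80 tested at 48 h held 25 and 6. The choice by siNC level tilts this set towards rises, since it takes in genes low in siNC and high in siANLN. Over all genes tested 5.93% rose and 4.86% fell at 24 h, and 22.2% and 21.3% at 48 h. The families below are to be read against the same shares. Of 37 ZBTB genes, which carry fingers behind a BTB domain, 5 rose and 2 fell at 24 h, and 9 of 36 rose and 6 fell at 48 h. The ZBTB calls at 48 h lie near the shares over all genes. Of 6 ZKSCAN genes, 3 rose at each time and 2 fell at 48 h (medians 0.15 and 0.18). Of the ZFP genes, 1 of 13 rose at 24 h, and 9 of 14 rose and 2 fell at 48 h (medians 0.10 and 0.23). Of the ZSCAN genes, 1 of 14 rose at 24 h, and 2 of 13 rose and 2 fell at 48 h. Of the 270, 106 share over 5% of their exon bases with an overlapping gene or of their 75-base windows with another transcript. They include named members not flagged above. By exon bases these are ZNF263 (34.3%), ZNF770 (31.9%), ZNF503 (15.8%), ZNF580 (15.1%), ZNF799 (12.9%), ZNF432 (11.7%), ZNF146 (10.8%), ZNF646 (8.94%), ZNF143 (7.58%), ZNF451 (6.29%), ZNF664 (5.99%) and ZNF768 (5.39%). ZNF207 shares 18.5% of its windows. The 164 members not among the 106 had 40 rises and 2 falls at 24 h and 67 and 22 at 48 h.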

How the data were processed

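For each time the authors deposited a table of read counts and a table of FPKM (fragments per gene length and library total). The submitters' processing notes list cutadapt 1.18, STAR 2.7.3a, featureCounts, DESeq2 1.44.0 and GRCh38. Strand settings are not given in the sources used here, so overlapping genes on opposite strands cannot be told apart. Libraries were poly(A)-selected and read as paired reads of 150 bases, per the labels' protocols. Counts per library lay between 11805488 and 17921808, so genes near 5 CPM rest on the fewest counts; counting error was not separated from the spread between libraries.

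Repeated lines of the 48 h table were identical and kept once. Counts were normalised by TMM and tested per time on 6 libraries with edgeR 4.0.16 (robust quasi-likelihood F test, filterByExpr, two-sided) in R 4.3.3, with Benjamini-Hochberg adjustment over all genes. The difference between times was a contrast over 12 libraries and shared IDs. SE is the log2 change over the root of F. Code was tested on simulated data. The authors' deposited FPKM served for levels and, in limma 3.58.1 with pseudocounts of 0.1 and 1, as an alternative, beside DESeq2 1.42.0, other scaling, no filter, a replicate block and leaving out each library. Members, gene lists and words were chosen with earlier results of these data known.

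Named genes are the 8 largest rises and falls at each time among called members with no overlap between groups, the 6 smallest p for the difference, the 6 highest FPKM, members with known roles, 3 genes on each side of the threshold, ANLN, TRIM28, SETDB1 and the 3 cofactors with the smallest adjusted p at each time. ZNF616, DAXX and the members of runs were named after their values were seen. Fingers (cysteines 2 to 4 residues apart, 12 residues, histidines 3 to 5 apart) and domain signatures were searched in the GENCODE 29 transcript with the longest reading frame. A domain in another transcript, or one that departs from the signature, is missed, and 34 of 19032 coding genes of other names match the KRAB signature. Same-numbered libraries did not deviate together (correlations from -0.011 to 0.027). One word site and the level of one marker are not reported here.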

Additional observations from a re-analysis of the deposited data

Results flagged for a closer look

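Changes that differed between 48 h and 24 h, by the test of the difference itself over 12 libraries, are listed here with no explanation. Among the ZNF genes, 22 changes were higher at 48 h and 7 were lower. Among those named, the log2 change was higher at 48 h by 0.963 for ZNF432, 0.714 for ZNF664, 0.633 for ZNF675, 0.548 for ZNF697, 0.476 for ZNF317, 0.356 for ZNF121 and 0.231 for ZNF622. It was lower at 48 h for ZNF517 (-0.712), ZNF362 (-0.619), ZNF195 (-0.594) and ZNF445 (-0.339). Each time has its own table, so time and the making of the tables cannot be told apart. Groups of 3 were not searched for single libraries that stand apart.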

How the results depend on the processing

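At 24 h the 57 rises and 7 falls among ZNF genes became 31 and 2 with limma on log2(FPKM + 0.1), 29 and 2 on log2(FPKM + 1), and 25 and 2 with no filter on low values; DESeq2 gave 48 and 4. At 48 h the 111 rises and 41 falls became 79 and 23 with limma with either pseudocount, 69 and 14 with no filter, and 94 and 22 with DESeq2. For the difference between times, DESeq2 called 3 lower changes in place of 7. Leaving out 1 library at a time gave 48 to 52 rises and 4 to 8 falls at 24 h, 101 to 107 rises and 30 to 37 falls at 48 h, and 15 to 28 higher and 4 to 7 lower differences. Falls at 24 h were 4 without siANLN replicate 3 or without siNC replicate 3, and lower differences were 4 without siANLN replicate 2 of either time. The median change of members without KRAB at 24 h, -0.01, was above 0 without siANLN replicate 3 or siNC replicate 1. Cofactor rises at 24 h were 1 with limma with either pseudocount and 0 with no filter, where 1 fall was called, against 3 and 3; at 48 h 8 rises became 5 by library size alone and 4 under each limma setting. With the replicate block, counts were 57 and 8 at 24 h, 111 and 41 at 48 h, and 24 and 7 for the difference; the numbers are shared only as labels. Chosen after seeing the data, members without the 4 words gave 18 and 1 at 24 h, 42 and 11 at 48 h, and 11 and 2 for the difference; those with little overlap or sharing gave 40 and 2, 67 and 22, and 12 higher differences. Both hold fewer genes by construction. Of 1698 values of named genes under the alternatives, 1583 kept direction and side of the threshold, 99 lost a call, 7 gained one and 9 uncalled values moved; 0 called values changed sign. Members near 5 CPM rest on the fewest counts.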
